A study of Mus musculus with 7 samples.

Results

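The genes described are 38 genes of the collagen and dermal matrix, of 17101 genes tested in mouse dorsal skin. They were chosen by symbol among the array's non-control probes, by a rule that uses no measured value, but with earlier results of these data known. They comprise 5 fibrillar collagen genes, 5 other collagen genes, 8 genes of the elastic fibre and 5 genes grouped as small proteoglycans. The others are 7 genes whose products process collagen and 8 matricellular and adhesive genes. In the scanner files 37 of them carried their present symbol and 1, Vcan, was found through an older symbol. All 38 had a probe that passed the filter on dim probes; of their 71 probes, 59 passed.

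Male mice of the hairless strain HR-1, 5 weeks old, ate an AIN-93G diet with glucosylceramide (GC), a sphingolipid made of ceramide and a sugar, or the same diet without it, called GC-fed and control-fed here. Skin was taken at 14 days of diet, after 2 days with a 5 minutes' daily application of 10% sodium dodecyl sulfate (SDS), a detergent that damages the skin barrier, or at 12 days of diet, before any SDS. Each of 7 two-colour arrays held 1 GC-fed and 1 control-fed RNA, 4 arrays with skin after SDS and 3 with skin before SDS. The 4 groups were therefore GC-fed skin after SDS (4 samples), control-fed skin after SDS (4 samples), GC-fed skin before SDS (3 samples) and control-fed skin before SDS (3 samples), all of the same strain, sex and basal diet. The labels call the replicates biological without saying whether each is a separate animal or a pool. Nor do they give a GC dose.

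Dermal collagen is made mainly by fibroblasts. Chains of type I and type III collagen are hydroxylated and folded in the endoplasmic reticulum with the help of the chaperone encoded by Serpinh1, trimmed outside the cell by peptidases, and joined by lysyl oxidases into fibrils that small proteoglycans and minor collagens coat and space. Elastic fibres consist of an elastin core on a scaffold of fibrillin microfibrils, with fibulins at the interface. Matricellular proteins such as periostin and tenascins bind these fibres and change during repair of the skin.

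Several features of the arrays bear on every value. All arrays after SDS lay on 1 slide, scanned together, and all arrays before SDS on another, so SDS and slide cannot be told apart. Skin after SDS was taken at 14 days of diet and skin before SDS at 12 days, with no skin free of SDS at 14 days. SDS therefore cannot be told apart from the added days of diet and age either. Array 4 after SDS stood apart: over the 17101 genes, which are not independent replicates, Pearson's r between its diet ratios and those of array 1 was -0.499, with -0.622 for array 2 and -0.302 for array 3. Among arrays 1 to 3 the same r was 0.315 to 0.497. Before SDS, array 1 ran against array 2 (r = -0.404) and array 3 (r = -0.181), while arrays 2 and 3 had r = 0.23. After SDS, arrays 3 and 4 carried the GC-fed RNA in the same dye, Cy5, and arrays 1 and 2 carried it in Cy3. Before SDS, array 1 carried it in Cy3 and arrays 2 and 3 in Cy5. Ratios given array by array hold any effect of the dye, whereas the fits have a dye term. As red over green, whatever the diet, after-SDS array 4 had r = 0.499 with after-SDS array 1, 0.622 with array 2 and -0.302 with array 3. On that scale before-SDS array 1 had r = 0.404 with before-SDS array 2 and 0.181 with before-SDS array 3. The dyes named in the labels were kept as the direction for all 7 arrays, but the dye orientation of array 4 is in doubt: were its dyes the other way round, each of its diet ratios would change sign and its GC-fed and control-fed levels would change places. This was not tested, and diet results after SDS are given with and without array 4. All 12 fibroblast markers were well above background in at least 1 sample of each group, with a mean log2 intensity of 11.82 to 12.26 in GC-fed and 11.96 to 12.29 in control-fed skin after SDS, and 12.07 to 12.25 in GC-fed and 12.06 to 12.21 in control-fed skin before SDS. In whole skin, fewer cells of a type and less RNA per cell cannot be told apart.

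Promoters are shown for 3 members around which the diet values after SDS turn: the fibrillar collagen genes Col1a2 and Col3a1, with fitted values above 0, and Serpinh1, their chaperone's gene, with one below 0, none of which passed the test on all arrays. Each is the 250 bases before the RefSeq start of the gene (GRCm38.p6), read 5′ to 3′ on the gene's strand, at chr7:99353240-99353489 on the minus strand for Serpinh1, chr6:4505368-4505617 on the plus strand for Col1a2 and chr1:45311288-45311537 on the plus strand for Col3a1. Capitals mark a match on either strand to the CCAAT box, to GGGCGG (the GC box) or to TATAAA (the TATA box); the matches shown do not overlap.
Serpinh1: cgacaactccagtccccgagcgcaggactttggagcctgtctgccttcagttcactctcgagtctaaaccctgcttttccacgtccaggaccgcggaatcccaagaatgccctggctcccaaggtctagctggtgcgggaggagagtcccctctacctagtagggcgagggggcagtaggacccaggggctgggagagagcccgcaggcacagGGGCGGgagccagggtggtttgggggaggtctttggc
Col1a2: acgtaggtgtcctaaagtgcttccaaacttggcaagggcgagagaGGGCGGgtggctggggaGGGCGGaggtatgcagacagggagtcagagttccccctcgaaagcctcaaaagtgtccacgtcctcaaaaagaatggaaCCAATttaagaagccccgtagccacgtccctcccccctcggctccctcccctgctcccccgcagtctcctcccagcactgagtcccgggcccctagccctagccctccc
Col3a1: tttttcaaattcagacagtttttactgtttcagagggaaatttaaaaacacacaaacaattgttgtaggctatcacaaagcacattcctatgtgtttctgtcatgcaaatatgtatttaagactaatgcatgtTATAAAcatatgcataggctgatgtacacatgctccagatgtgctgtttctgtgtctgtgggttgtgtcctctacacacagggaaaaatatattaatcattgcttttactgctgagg
GGGCGG stood once in the Serpinh1 window, starting 37 bases before the start, and at 205 and 188 bases before the start in that of Col1a2. The Col1a2 window also held CCAAT at 109 bases before the start, and the Col3a1 window held TATAAA at 117 bases before the start. Of the 38 members, 24 matched the promoter table, with 30 promoters. GGGCGG or its reverse complement stood in 17 of these 30 promoters (56.7%), against 32.7% of the 32851 promoters in the table. CCAAT stood in 5 of 30 (16.7%), against 33.8%, and TATAAA in 5 of 30 (16.7%), against 12.4%. The inverted pairs GAANNTTC and TTCNNGAA of the heat shock element were in 0 of the 30 windows and in 6.69% and 7.17% of all promoters. Neighbouring genes were Col3a1 and Col5a2 on chromosome 1, and Col6a2 with Col6a1 and Dcn with Lum on chromosome 10, each pair with 0 protein-coding genes between them in RefSeq.

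The first comparison asked whether the diet changed matrix transcripts in skin not yet given SDS. No member passed (0 of 38 at an adjusted p under 0.05 in limma's fit to the log2 ratios), and of all 17101 genes 0% were called in that comparison. At an unadjusted p under 0.05 there were 0 members, against 0.24% of all genes higher and 0.158% lower in GC-fed skin. Fitted log2 ratios, GC-fed divided by control-fed, were above 0 for 27 members and below 0 for 11, with a median of 0.07 against -0.0022 over all genes. Before SDS the members had a median of 0.11 on array 1, -0.16 on array 2 and 0.25 on array 3, so array 2 ran against the others.

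Values before SDS were small and seldom of the same sign on all 3 arrays. Fbln1, Postn and Cthrc1 were higher in GC-fed skin on all 3, against 9.29% of all genes, and Mfap5, Loxl1 and Tnxb were lower on all 3, against 9.6% of all genes. For Tnxb these ratios were only -0.0046, -0.17 and -0.05, and the fit, which has a dye term, lay above 0, at 0.04 (SE 0.22). The members with the smallest p on the positive side were Lum and Mfap4. Lum, the gene of the small proteoglycan lumican, had log2 ratios of -0.06, 0.33 and 0.71 on arrays 1 to 3, fitted at 0.24 (SE 0.10) (unadjusted p = 0.0532). Mfap4, the gene of a microfibril-associated glycoprotein, had 0.44, -0.06 and 0.24, fitted at 0.23 (SE 0.11) (unadjusted p = 0.0689). On the negative side they were Mfap5, which encodes a small glycoprotein of microfibrils, with -0.34, -0.23 and -0.37 and a fit of -0.37 (SE 0.34), and Loxl1, a lysyl oxidase gene, with -0.12, -0.18 and -0.23 and a fit of -0.18 (SE 0.27). Lum and Mfap4 each had an array on the other side of 0, whereas Mfap5 and Loxl1 had none.

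The second comparison asked whether the diets differed after SDS. Again no member passed (0 of 38, and 0% of all genes, with a lowest adjusted p of 0.835). At an unadjusted p under 0.05 there were 7 members higher in GC-fed skin, against 1.68% of all genes, namely Col1a1, Col1a2, Col3a1, Lox, Adamts2, Sparc and Postn. Serpinh1 and Fbln1 were the 2 members lower at that level, against 2.8% of all genes. Fitted log2 ratios were above 0 for 19 members and below 0 for 19, with a median of -0.0024 against -0.00080 over all genes.

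That even split joined arrays that differed. The 38 genes had a median of -0.16 on array 1, -0.10 on array 2 and -0.20 on array 3, where 10, 17 and 14 of the 38 were higher in GC-fed skin. Array 4 had a median of 0.46, with 30 of 38 higher. Of the members, 14 (36.8%) were lower on all of arrays 1 to 3 and higher on array 4, as were 17.2% of all genes. Col1a1 and Sparc (5.26% of members, and 13% of all genes) went the other way. Col1a2 and Adamts2 were higher on all 4 arrays, against 3.36% of all genes, and Fbln1 and Serpinh1 were lower on all 4, against 4.62% of all genes.

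**Figure D1:**
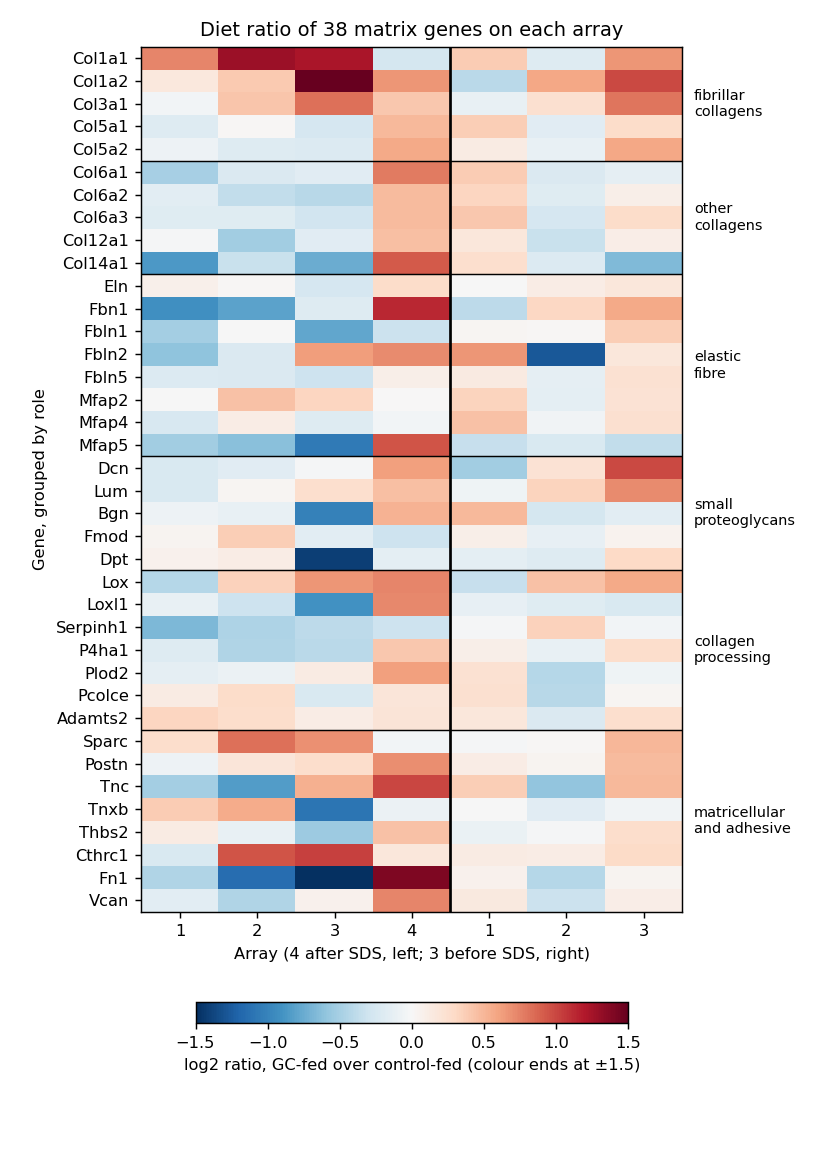
Diet ratio (log2, GC-fed divided by control-fed skin) for the 38 genes (rows, grouped by role) on the 4 arrays after SDS (left) and the 3 before SDS (right), with red for higher and blue for lower in GC-fed skin and the colour ending at 1.5 either way. After-SDS array 4 is red in 30 of 38 rows, while the Serpinh1 row is blue on all 4 after-SDS arrays.

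Without array 4, 8 members passed, against 5.42% of all genes (927 genes; 1.46% higher and 3.96% lower). Col1a1 at 1.08 (SE 0.19) and Col1a2 at 0.97 (SE 0.11) were then higher in GC-fed skin. Fn1 at -1.37 (SE 0.21), Mfap5 at -0.77 (SE 0.10), Col14a1 at -0.71 (SE 0.15), Bgn at -0.53 (SE 0.07), Fbn1 at -0.52 (SE 0.08) and Serpinh1 at -0.48 (SE 0.10) were then lower. Their adjusted p lay between 0.00785 for Col1a2 and 0.048 for Col14a1. The members' median without array 4 was -0.18. The sign of the fit changed for 10 members (Col5a1, Col5a2, Eln, Fbln2, Dcn, Fmod, Plod2, Pcolce, Tnc and Vcan). At an unadjusted p under 0.05 there were then 5 members higher and 12 lower, against 11% and 13.2% of all genes. No such call was made when any other array was left out, so the calls belong to arrays 1 to 3. Array 4 was singled out by these same diet ratios, and leaving out the array that disagrees lowers the SE. For Fn1 the SE went from 0.51 to 0.21. The p-values without array 4 are therefore too small to serve as a test of diet, here and in the other diet results given without it.

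**Figure D2:**
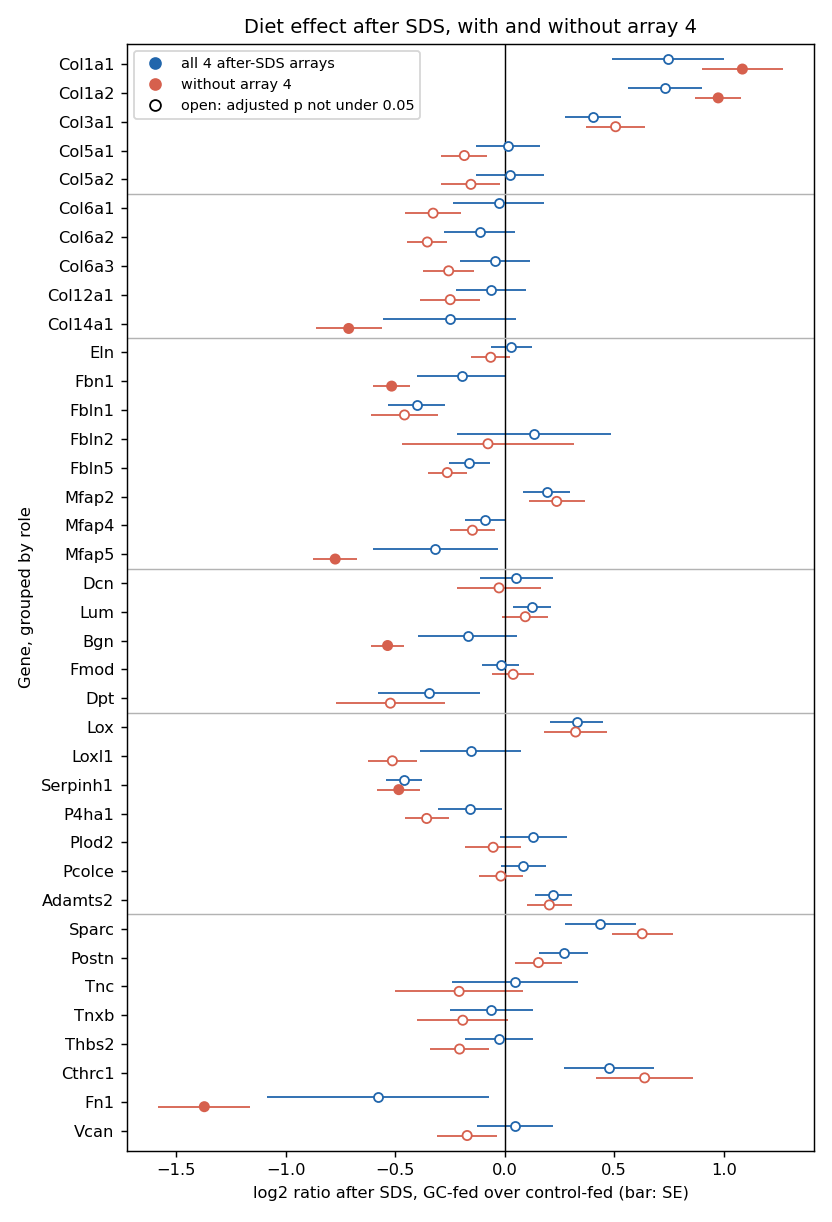
Fitted diet ratio after SDS (log2, GC-fed divided by control-fed skin) for the 38 genes, from all 4 after-SDS arrays (blue) and without array 4 (red), with bars for the SE and filled points for an adjusted p under 0.05. No blue point is filled and 8 red points are, and the 2 estimates lie close together for Serpinh1 and apart for Fn1, Mfap5 and Col14a1.

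All 5 fibrillar collagens had fitted values above 0 after SDS, and both chains of type I had the largest of the 38, but without array 4 only 3 of the 5 were above 0. Col1a1, which encodes a chain of type I collagen, the main fibre of the dermis, had log2 ratios of 0.73, 1.29, 1.22 and -0.26 on after-SDS arrays 1 to 4 and 0.38, -0.20 and 0.66 on before-SDS arrays 1 to 3. Col1a2, the other chain of type I, had 0.16, 0.39, 1.71 and 0.66 after SDS and -0.41, 0.59 and 0.99 before SDS. Col3a1, type III collagen, had -0.04, 0.41, 0.83 and 0.40 after SDS and -0.11, 0.24 and 0.80 before SDS. Col1a1 was high on arrays 1 to 3 and below 0 on array 4, Col1a2 was above 0 on all 4 and highest on array 3, and the ranges before and after SDS overlapped for all 3 genes. The fitted ratios after SDS were 0.75 (SE 0.26) for Col1a1 (unadjusted p = 0.0236), 0.73 (SE 0.17) for Col1a2 (unadjusted p = 0.00377) and 0.40 (SE 0.13) for Col3a1 (unadjusted p = 0.0176), each at an adjusted p of 0.835. All other probes of these genes that passed the filter were also positive after SDS, Col1a1 at 0.74 and 0.46, Col1a2 at 0.21 and Col3a1 at 0.28. Col5a1 and Col5a2, the type V chains that limit fibril width, were fitted at 0.01 (SE 0.15) and 0.02 (SE 0.15), and without array 4 at -0.18 (SE 0.11) and -0.15 (SE 0.13).

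The other collagens had fitted values below 0 after SDS in 5 of 5, from -0.25 to -0.03, with no unadjusted p under 0.05. Without array 4 they ran from -0.71 to -0.25, and 3 of the 5 (Col6a1, Col6a2 and Col14a1) had an unadjusted p under 0.05. Col6a1, a chain of the beaded filaments of type VI collagen, had -0.50, -0.22, -0.17 and 0.78 after SDS and 0.38, -0.21 and -0.14 before SDS. Col12a1, a collagen on the fibril surface, had -0.02, -0.52, -0.17 and 0.46 after SDS and 0.17, -0.33 and 0.10 before SDS. Col14a1, of the same class, had -0.86, -0.33, -0.74 and 0.92 after SDS and 0.25, -0.20 and -0.67 before SDS. In each of these genes arrays 1 to 3 after SDS were below 0 and array 4 above, and the same held for Col6a2 and Col6a3.

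With all arrays, genes of the elastic fibre spread to both sides of 0 after SDS, with 3 fits above and 5 below. Without array 4, 1 was above 0 and 7 were below, from -0.77 to 0.24. Of these 8 genes, 4 (Fbn1, Fbln1, Fbln5 and Mfap5) were then lower at an unadjusted p under 0.05. Eln, which encodes elastin, had 0.08, 0.01, -0.25 and 0.28 after SDS and -0.01, 0.11 and 0.17 before SDS. Fbn1, the microfibril gene fibrillin, had -0.92, -0.81, -0.20 and 1.14 after SDS and -0.39, 0.31 and 0.57 before SDS. Fbln1, which encodes a fibulin of elastic fibres and basement membranes, had -0.51, -0.0046, -0.77 and -0.33 after SDS and 0.02, 0.02 and 0.37 before SDS. On this brightest probe Fbln1 was lower in GC-fed skin on 4 of 4 arrays after SDS, by little on array 2. It was higher on 3 of 3 before SDS, so the 2 sets of arrays did not overlap. Its fit after SDS was -0.40 (SE 0.13) (unadjusted p = 0.0178, adjusted p = 0.835), and its other probe gave -0.40. That other probe was at 0.33 on after-SDS array 2 and -0.03 on before-SDS array 2, so there the sets overlapped and neither kept 1 direction. Mfap5 had -0.52, -0.63, -1.06 and 0.94 after SDS, low on arrays 1 to 3 and high on array 4. Fbln5, Mfap2 and Mfap4 were fitted at -0.16 (SE 0.09), 0.19 (SE 0.11) and -0.09 (SE 0.09) after SDS, and Fbln2, at 0.13 (SE 0.35), varied most before SDS, with 0.67, -1.28 and 0.17.

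Among the small proteoglycans no unadjusted p was under 0.05 after SDS with all arrays, and 1 (Bgn) was without array 4. Dcn, the gene of decorin, which binds collagen fibrils, had -0.23, -0.16, -0.01 and 0.62 after SDS and -0.53, 0.22 and 0.99 before SDS. Lum had -0.23, 0.03, 0.25 and 0.45 after SDS. Dpt, placed in this group, encodes dermatopontin, a partner of decorin that is not itself a proteoglycan. Dpt had 0.06, 0.12, -1.42 and -0.15 after SDS and -0.15, -0.19 and 0.30 before SDS. Dcn was near 0 or below on arrays 1 to 3 and high on array 4, and the low fit of Dpt came mainly from array 3. Bgn and Fmod, the genes of biglycan and fibromodulin, were fitted at -0.17 (SE 0.23) and -0.02 (SE 0.09).

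Collagen processing held the smallest p of the members. Serpinh1 had -0.68, -0.46, -0.40 and -0.31 after SDS and -0.02, 0.35 and -0.05 before SDS. It was lower in GC-fed skin on all 4 arrays after SDS, array 4 included, and on either side of 0 before SDS, with no overlap between the sets. The fit after SDS was -0.46 (SE 0.08) (unadjusted p = 0.00092, adjusted p = 0.835), and its promoter is that printed above. Lox, the lysyl oxidase that cross-links collagen and elastin, had -0.42, 0.35, 0.66 and 0.73 after SDS and -0.35, 0.44 and 0.57 before SDS, negative on array 1 of both sets. P4ha1, a subunit of the prolyl hydroxylase of collagen, had -0.19, -0.45, -0.41 and 0.41 after SDS and 0.08, -0.12 and 0.27 before SDS, and Plod2, a lysyl hydroxylase of collagen, had -0.13, -0.09, 0.12 and 0.62 after SDS and 0.23, -0.42 and -0.06 before SDS. Both were higher on array 4 than on arrays 1 to 3. Lox was fitted at 0.33 (SE 0.12) after SDS (unadjusted p = 0.0307) and Adamts2, the peptidase gene that trims procollagen, at 0.22 (SE 0.08) (unadjusted p = 0.036), while Loxl1 and Pcolce were at -0.16 (SE 0.23) and 0.08 (SE 0.10). Without array 4, Lox at 0.32 (SE 0.15) and Adamts2 at 0.20 (SE 0.10) no longer had an unadjusted p under 0.05. Serpinh1 at -0.48 (SE 0.10), Loxl1 at -0.51 (SE 0.11) and P4ha1 at -0.36 (SE 0.10) then did.

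Matricellular and adhesive genes included the widest spread. Fn1, which encodes fibronectin, had -0.45, -1.14, -2.13 and 1.40 after SDS and 0.06, -0.42 and 0.04 before SDS. Tnc, the gene of tenascin C, had -0.51, -0.84, 0.53 and 1.01 after SDS and 0.37, -0.59 and 0.49 before SDS. Fn1 was below 0 on arrays 1 to 3 after SDS and far above it on array 4, and Tnc was split between arrays. Sparc, a collagen-binding glycoprotein of matrix assembly, had 0.26, 0.83, 0.68 and -0.04 after SDS and -0.02, 0.01 and 0.50 before SDS. Postn, the periostin gene, had -0.07, 0.18, 0.26 and 0.70 after SDS and 0.11, 0.04 and 0.47 before SDS, and Cthrc1, a secreted protein with a short collagen repeat, had -0.23, 0.94, 1.02 and 0.18 after SDS. Sparc was high on arrays 1 to 3 and near 0 on array 4, while Postn and Cthrc1 were below 0 on array 1 and above 0 on the other 3. Fits after SDS were 0.44 (SE 0.16) for Sparc (unadjusted p = 0.0331), 0.27 (SE 0.11) for Postn (unadjusted p = 0.0473), -0.58 (SE 0.51) for Fn1, and between -0.06 and 0.05 for Tnc, Tnxb, Thbs2 and Vcan. Without array 4, Sparc at 0.63 (SE 0.14), Cthrc1 at 0.64 (SE 0.22) and Fn1 at -1.37 (SE 0.21) had an unadjusted p under 0.05. Postn, at 0.15 (SE 0.11), then had none, and Tnc, Tnxb, Thbs2 and Vcan lay between -0.21 and -0.17.

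No marker of another cell type passed in the diet comparison after SDS with all arrays, where no gene did. Fitted diet ratios were below 0 for 9 of 10 skeletal muscle markers (median -0.74), 10 of 10 adipocyte markers (median -0.49) and 10 of 10 macrophage and monocyte markers (median -0.47), and above 0 for 9 of 9 keratinocyte markers (median 0.32). The mean log2 intensity of the muscle markers after SDS was 13.70 to 14.55 in GC-fed and 14.80 to 15.19 in control-fed samples, and that of the adipocyte markers 12.81 to 13.02 in GC-fed and 13.18 to 13.78 in control-fed samples. For macrophages it was 11.78 to 12.79 in GC-fed and 12.03 to 12.89 in control-fed samples, and for keratinocytes 14.39 to 15.38 in GC-fed and 14.20 to 14.97 in control-fed samples. Each of these markers was well above background in at least 1 sample of each group. The keratinocyte ratio changed sign with the array: its median was 0.88 on array 1, 0.61 on array 2, 0.60 on array 3 and -0.76 on array 4. The macrophage median was -0.62, -0.40 and -1.07 on the first 3 of these arrays and 0.48 on array 4. For fibroblast markers 10 of 12 had fits below 0 (median -0.11). The part of these cells in the matrix ratios was not tested.

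The third comparison was the diet ratio after SDS minus that before SDS, which is also the test of whether the SDS effect differed between the diets. No member passed (0 of 38, and 0% of all genes). At an unadjusted p under 0.05 there were 2 members, both lower, against 0.596% of all genes lower and 0.608% higher. Serpinh1 differed by -0.52 (SE 0.13) (unadjusted p = 0.00493) and Fbln1 by -0.56 (SE 0.20) (unadjusted p = 0.028), each at an adjusted p of 1. Without after-SDS array 4 there were 3 members higher (Col1a1, Col1a2 and Sparc) and 14 lower at an unadjusted p under 0.05, against 4.94% and 6.96% of all genes, and the members' median was -0.25. Of the 17101 genes 0.327% passed in that fit, and 0 members did. With all arrays, the smallest p on the positive side belonged to Col1a2, at 0.51 (SE 0.26) (unadjusted p = 0.0918), and Lox, at 0.24 (SE 0.19) (unadjusted p = 0.242). Fitted differences were above 0 for 16 members and below 0 for 22, with a median of -0.04, and the SE of a member's difference had a median of 0.25, so that a difference of that size was not detectable.

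The SDS effect was then asked in each diet, from the log2 intensities of the 14 channels. In GC-fed skin 10 of 38 members passed (26.3%), against 13.4% of all genes, with 1 higher after SDS (6.35% of all genes) and 9 lower (7.1% of all genes). In control-fed skin 10 of 38 passed (26.3%), against 14.9% of all genes, with 3 higher (6.88% of all genes) and 7 lower (8.01% of all genes). The members' median log2 difference, after minus before SDS, was -0.25 in GC-fed and -0.18 in control-fed skin, and 28 and 29 of the 38 were below 0. Over all genes the median was 0.0025 and 0.0030. Of the calls, 8 were made in both diets, for Plod2 (higher) and for Col5a2, Eln, Fmod, Lox, Pcolce, Sparc and Cthrc1 (lower). Mfap4 and Thbs2 passed in GC-fed skin, and Serpinh1 and Fbln5 in control-fed skin, but the difference between diets passed for none of them.

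These counts depended on the arrays. In GC-fed skin 3 members passed without before-SDS array 2 (3.12% of all genes) and 3 without before-SDS array 3 (3.41% of all genes). There 5 passed without after-SDS array 3 (5.78% of all genes) and 19 without after-SDS array 4 (15.9% of all genes). Without before-SDS array 1, after-SDS array 1 and after-SDS array 2 the counts were 7, 7 and 10, against 9.55%, 9.46% and 11.4% of all genes. In control-fed skin 0 members passed without before-SDS array 1, when 93 genes did (0.544%), and 7 passed without before-SDS array 2 (8.65%), before-SDS array 3 (6.42%) or after-SDS array 1 (8.86%). There 8 passed without after-SDS array 2 (10.2%), 9 without after-SDS array 3 (12.2%) and 10 without after-SDS array 4 (21.4%). Of the 7 fits with an array left out, the calls in GC-fed skin were kept in 7 for Plod2 and Eln, 6 for Col5a2 and Lox, 5 for Cthrc1, 3 for Fmod, Mfap4 and Sparc, 2 for Pcolce and 1 for Thbs2. In control-fed skin they were kept in 6 for Cthrc1, Eln, Lox, Serpinh1 and Sparc, 5 for Pcolce, 3 for Col5a2, Fbln5 and Plod2, and 1 for Fmod. Of the members that did not pass in GC-fed skin with all arrays, 9 passed without after-SDS array 4: Fn1 at -1.21, Bgn at -0.89, Loxl1 at -0.72, Tnxb at -0.61, Fbn1 at -0.47 and the 4 collagen genes of types VI and XIV given below. With median centring of the arrays in place of loess, 5 members passed in control-fed skin, 1 higher and 4 lower. Over all genes, that setting called 389 higher and 762 lower in GC-fed skin, against 1086 and 1214 with loess, and 405 higher and 736 lower in control-fed skin, against 1176 and 1370 with loess.

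**Figure D3:**
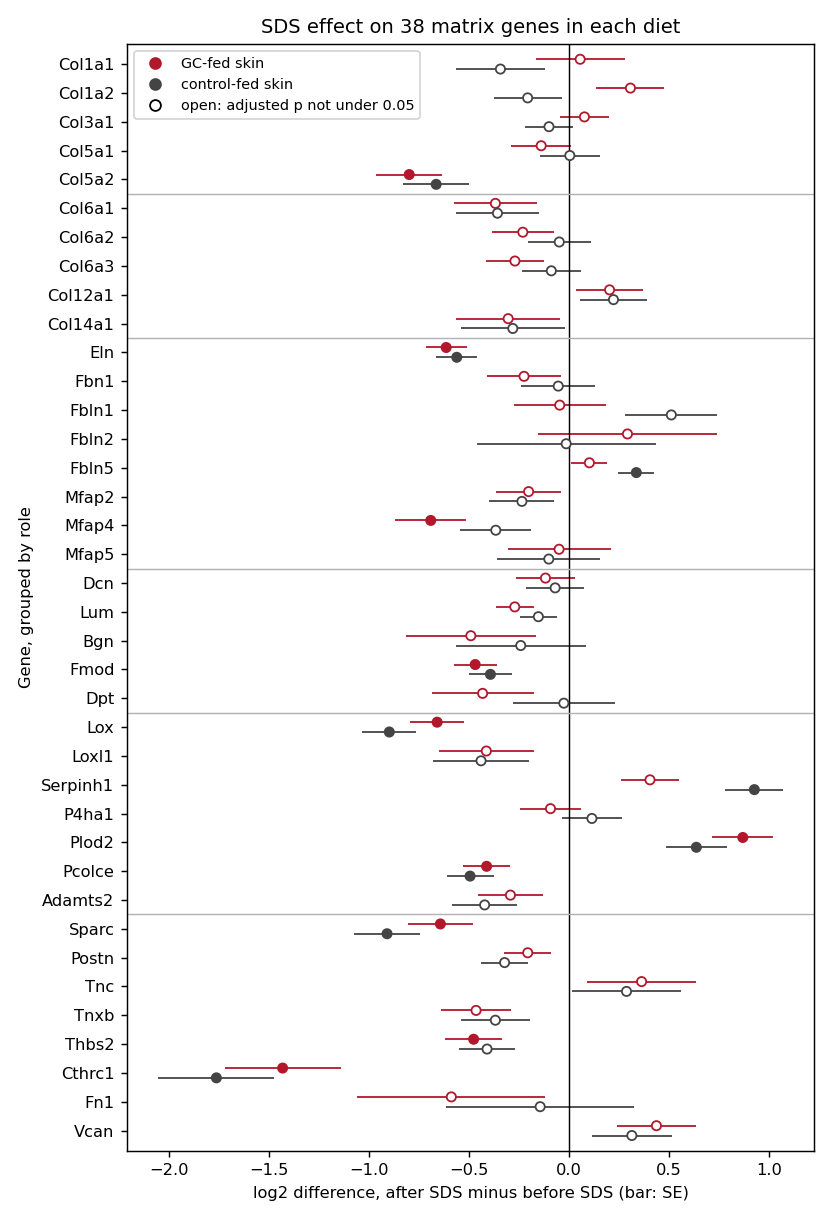
Log2 difference, after SDS minus before SDS, for the 38 genes in GC-fed skin (red) and control-fed skin (grey), with bars for the SE and filled points for an adjusted p under 0.05. Cthrc1 lies farthest to the left in both diets, at -1.43 and -1.76. Farthest to the right are Plod2 in GC-fed skin and Serpinh1 in control-fed skin.

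Enzymes and chaperones of collagen moved in both directions with SDS. Serpinh1 had log2 intensities of 14.73, 15.35, 15.18 and 15.09 in GC-fed skin after SDS and 14.56, 14.79 and 14.76 before SDS. In control-fed skin it had 15.41, 15.81, 15.57 and 15.40 after SDS and 14.57, 14.44 and 14.80 before SDS. The control-fed groups did not overlap, whereas GC-fed sample 1 after SDS lay within the range before SDS. The difference was 0.40 (SE 0.14) in GC-fed skin (adjusted p = 0.0827), and Serpinh1 rose by 0.93 (SE 0.14) in control-fed skin, a 1.9-fold level (adjusted p = 0.00331).

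Plod2 rose in both diets. It had 9.02, 8.70, 8.92 and 9.15 after SDS and 8.19, 8.03 and 8.05 before SDS in GC-fed skin. It had 9.15, 8.79, 8.795 and 8.53 after SDS and 7.96, 8.45 and 8.11 before SDS in control-fed skin. Neither pair of groups overlapped, and the differences were 0.87 (SE 0.15) in GC-fed skin (adjusted p = 0.00696) and 0.64 (SE 0.15) in control-fed skin (adjusted p = 0.0174), or 1.83-fold and 1.55-fold. Lox fell in both. It had 10.32, 11.07, 11.03 and 11.13 after SDS and 11.34, 11.81 and 11.68 before SDS in GC-fed skin. It had 10.74, 10.72, 10.37 and 10.40 after SDS and 11.69, 11.37 and 11.12 before SDS in control-fed skin. All samples after SDS were below all samples before SDS within each diet, with differences of -0.66 (SE 0.14) (adjusted p = 0.0115) in GC-fed and -0.90 (SE 0.14) (adjusted p = 0.00299) in control-fed skin.

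Pcolce, which encodes an enhancer of the procollagen peptidase, fell as well, with log2 differences of -0.41 (SE 0.12) in GC-fed and -0.49 (SE 0.12) in control-fed skin (adjusted p = 0.0367 and 0.0166), with 14.64, 15.03, 14.60 and 14.96 after SDS against 15.36, 14.99 and 15.22 before SDS in GC-fed skin. Its GC-fed groups overlapped. P4ha1 and Loxl1 did not pass, at -0.09 (SE 0.15) and -0.41 (SE 0.24) in GC-fed and 0.11 (SE 0.15) and -0.44 (SE 0.24) in control-fed skin. Adamts2 was at -0.29 (SE 0.16) and -0.42 (SE 0.16) and did not pass on the brightest of its 4 probes, but 2 others passed in both diets, at -1.22 and -0.79 in GC-fed and -1.43 and -0.67 in control-fed skin.

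**Figure D4:**
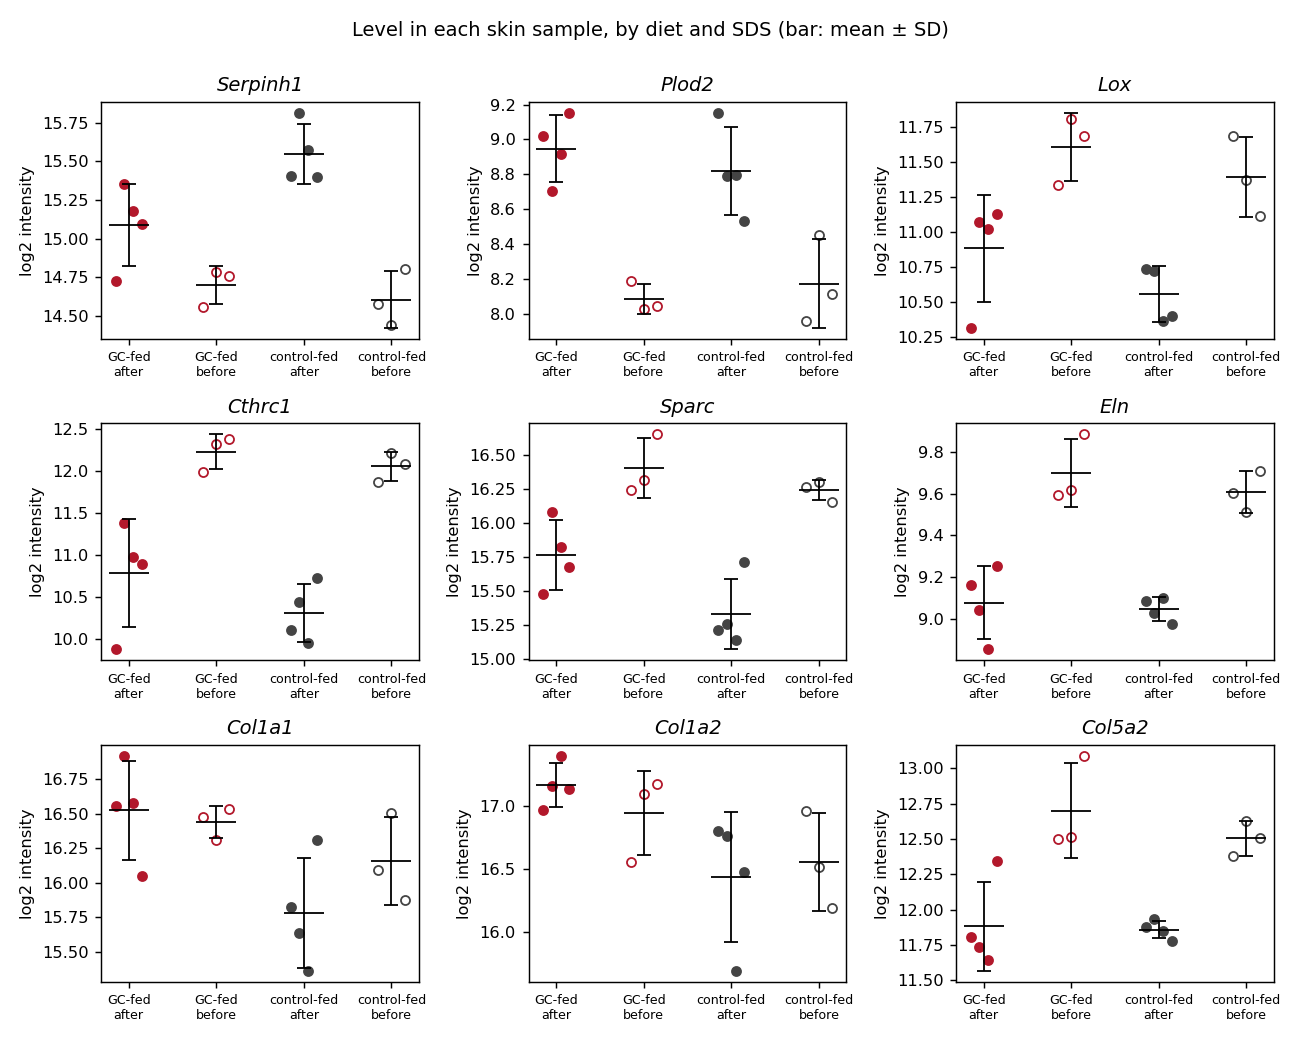
Log2 intensity of 9 genes in each skin sample, with 4 samples per diet after SDS (filled points) and 3 per diet before SDS (open points), GC-fed in red and control-fed in grey, and a bar for the mean with the SD. Scales differ between panels, and the after-SDS points lie apart from the before-SDS points of the same diet in Plod2, Lox, Cthrc1, Sparc, Eln and Col5a2.

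The largest fall was that of Cthrc1. It had 9.88, 11.39, 10.97 and 10.90 after SDS and 11.99, 12.32 and 12.38 before SDS in GC-fed skin. It had 10.11, 10.44, 9.95 and 10.72 after SDS and 11.87, 12.21 and 12.09 before SDS in control-fed skin. No sample after SDS reached any before SDS in the same diet. The differences were -1.43 (SE 0.29) in GC-fed skin and -1.76 (SE 0.29) in control-fed skin, or 0.37 and 0.294 of the level before SDS (adjusted p = 0.0111 and 0.00389). Sparc fell in both diets, at -0.64 (SE 0.16) in GC-fed and -0.91 (SE 0.16) in control-fed skin (adjusted p = 0.0242 and 0.00531). Its log2 intensities were 15.48, 16.08, 15.82 and 15.68 after SDS and 16.25, 16.32 and 16.65 before SDS in GC-fed skin, and 15.21, 15.25, 15.14 and 15.71 after SDS and 16.26, 16.30 and 16.16 before SDS in control-fed skin, without overlap in either diet. A dimmer second Sparc probe did not pass, at -0.08 in GC-fed and -0.26 in control-fed skin. Thbs2, which encodes a thrombospondin that restrains vessel growth, fell in GC-fed skin, at -0.48 (SE 0.14) (adjusted p = 0.0436) and was at -0.41 (SE 0.14) in control-fed skin (adjusted p = 0.0695). Its groups did not overlap in either diet. Postn, Tnc, Tnxb, Fn1 and Vcan did not pass in either diet with all arrays, at -0.21, 0.36, -0.47, -0.59 and 0.44 in GC-fed and -0.32, 0.29, -0.37, -0.14 and 0.31 in control-fed skin.

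Among collagens, the call was Col5a2. It had 11.80, 11.74, 11.64 and 12.35 after SDS and 12.50, 12.52 and 13.09 before SDS in GC-fed skin. It had 11.87, 11.93, 11.85 and 11.78 after SDS and 12.38, 12.62 and 12.51 before SDS in control-fed skin. Samples after SDS were all lower than those before SDS, although GC-fed sample 4 came close, and the differences were -0.80 (SE 0.17) (adjusted p = 0.0116) in GC-fed and -0.66 (SE 0.17) (adjusted p = 0.0206) in control-fed skin. Col5a1, its partner chain, was at -0.14 (SE 0.15) and 0.0039 (SE 0.15) and did not pass. Col3a1, the neighbour of Col5a2 on chromosome 1, had 16.14, 16.49, 16.45 and 16.28 after SDS and 16.10, 16.30 and 16.51 before SDS in GC-fed skin, and 16.18, 16.08, 15.62 and 15.88 after SDS and 16.21, 16.06 and 15.71 before SDS in control-fed skin. These overlapped in both diets.

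The type I chains depended on the probe. On the brightest Col1a1 probe the log2 intensities were 16.56, 16.92, 16.58 and 16.05 after SDS and 16.47, 16.31 and 16.54 before SDS in GC-fed skin, and 15.82, 15.64, 15.36 and 16.31 after SDS and 16.09, 16.50 and 15.87 before SDS in control-fed skin. The groups overlapped in both diets, with differences of 0.06 (SE 0.22) and -0.34 (SE 0.22). A second Col1a1 probe was lower after SDS, at -1.06 in GC-fed and -1.49 in control-fed skin (adjusted p over probes = 0.00338 and 0.000666), and the third probe was at -0.46 and -0.86 (adjusted p over probes = 0.114 and 0.0103). Col1a2 had 16.97, 17.16, 17.40 and 17.14 after SDS and 16.56, 17.10 and 17.18 before SDS in GC-fed skin, and 16.81, 16.77, 15.69 and 16.48 after SDS and 16.96, 16.51 and 16.19 before SDS in control-fed skin, overlapping in both. It was at 0.31 (SE 0.17) and -0.21 (SE 0.17), and its dimmer probe at -0.26 and -0.42. The dimmer Col3a1 probe was at -0.12 and -0.41, and the dimmer Col1a2 and Col3a1 probes passed in control-fed skin (adjusted p over probes = 0.0419 and 0.0444). Of 16 members with several probes that passed the filter, calls differed between probes for 4 in GC-fed and 6 in control-fed skin, and signs for 7 and 5. The cause was not tested.

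The type VI, XII and XIV genes did not pass in either diet on the brightest probe. Col6a1 was at -0.37 (SE 0.21) in GC-fed and -0.36 (SE 0.21) in control-fed skin, Col12a1 at 0.20 (SE 0.17) and 0.22 (SE 0.17), and Col14a1 at -0.30 (SE 0.26) and -0.28 (SE 0.26). Without after-SDS array 4, Col6a1, Col6a2, Col6a3 and Col14a1 passed in GC-fed skin, at -0.65, -0.45, -0.45 and -0.65, and array 4 held the highest GC-fed sample of each.

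In the elastic fibre, Eln fell in both diets. It had 9.16, 9.04, 8.86 and 9.26 after SDS and 9.59, 9.62 and 9.88 before SDS in GC-fed skin. It had 9.09, 9.03, 9.104 and 8.98 after SDS and 9.60, 9.51 and 9.71 before SDS in control-fed skin. The groups were apart in both diets, with differences of -0.61 (SE 0.10) (adjusted p = 0.00573) in GC-fed and -0.56 (SE 0.10) (adjusted p = 0.00565) in control-fed skin. Mfap4 had 12.99, 13.70, 13.19 and 13.65 after SDS and 14.08, 13.88 and 14.23 before SDS in GC-fed skin, and fell, at -0.69 (SE 0.18) (adjusted p = 0.0252), and was at -0.37 (SE 0.18) in control-fed skin (adjusted p = 0.172). Fbln5, which encodes a fibulin needed to build elastic fibres, had 12.11, 12.30, 12.24 and 12.07 after SDS and 11.82, 11.91 and 11.79 before SDS in control-fed skin. It rose there by 0.34 (SE 0.09) (adjusted p = 0.0276) and was at 0.10 (SE 0.09) in GC-fed skin. Fbln1 was at -0.05 (SE 0.23) in GC-fed and 0.51 (SE 0.23) in control-fed skin, where its groups did not overlap (12.64, 13.23, 13.03 and 12.85 after SDS and 12.49, 12.32 and 12.49 before SDS) but the test did not pass (adjusted p = 0.144). Fbn1, Fbln2, Mfap2 and Mfap5 did not pass, at -0.23, 0.29, -0.20 and -0.05 in GC-fed and -0.05, -0.01, -0.24 and -0.10 in control-fed skin, and a dimmer Mfap2 probe passed in both diets, at -0.39 and -0.48.

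All 5 genes of the small proteoglycan group, Dpt included, had fitted values below 0 in both diets, and Fmod passed. Fmod had 8.62, 8.81, 8.54 and 8.70 after SDS and 9.03, 9.11 and 9.19 before SDS in GC-fed skin. It had 8.58, 8.45, 8.71 and 9.01 after SDS and 8.94, 9.24 and 9.14 before SDS in control-fed skin. Only control-fed sample 4 after SDS reached the range before SDS, and the differences were -0.47 (SE 0.11) (adjusted p = 0.0173) in GC-fed and -0.39 (SE 0.11) (adjusted p = 0.0308) in control-fed skin. Lum had 15.59, 15.91, 15.94 and 15.97 after SDS and 15.88, 16.20 and 16.42 before SDS in GC-fed skin, a difference of -0.27 (SE 0.09) (adjusted p = 0.0751), and was at -0.15 (SE 0.09) in control-fed skin. Dcn, which adjoins Lum on chromosome 10, was at -0.12 (SE 0.15) and -0.07 (SE 0.15), Bgn at -0.49 (SE 0.32) and -0.24 (SE 0.32), and Dpt at -0.43 (SE 0.25) and -0.03 (SE 0.25), none of which passed.

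Where the groups did not overlap, the counts in GC-fed skin were 1 higher and 9 lower of 38, against 11.5% and 11.8% of all genes. In control-fed skin they were 4 higher and 8 lower, against 14.9% and 15.9% of all genes.

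Matrix genes outside the 38 were read from lists chosen by function. Their counts stand against 6.35% of all genes higher and 7.1% lower with SDS in GC-fed skin. In control-fed skin 6.88% of all genes were higher and 8.01% lower. Of 20 measured genes of collagen folding and maturation, 1 was higher and 5 lower with SDS in GC-fed skin, and 1 higher and 4 lower in control-fed skin. Bmp1, the peptidase gene that trims the procollagen C end, fell, at -0.71 (SE 0.14) in GC-fed and -0.64 (SE 0.14) in control-fed skin (adjusted p = 0.00983 and 0.0111), and Hsp90b1, an endoplasmic reticulum chaperone gene, rose by 0.42 (SE 0.09) and 0.49 (SE 0.09) (adjusted p = 0.0111 and 0.00487). Of 20 other proteoglycan and glycoprotein genes, 0 were higher and 7 lower in GC-fed skin, and 2 higher and 7 lower in control-fed skin. Falls were -0.81 (SE 0.14) in GC-fed and -0.55 (SE 0.14) in control-fed skin for Ecm2, -0.63 (SE 0.13) and -0.64 (SE 0.13) for Smoc2, and -0.45 (SE 0.13) and -0.73 (SE 0.13) for Ogn, which encodes the small proteoglycan osteoglycin, with adjusted p at most 0.0348. Of 13 other collagen genes, 0 passed in GC-fed skin and 1, Col8a1, in control-fed skin, at 0.84 (SE 0.25) (adjusted p = 0.0417). Ddr2, a collagen receptor, fell in both diets, at -0.59 (SE 0.15) and -0.63 (SE 0.15), and 2 of 7 receptor genes passed as lower in each diet. Of 12 other elastic fibre genes 1 was higher and 1 lower in GC-fed skin and 0 higher and 1 lower in control-fed skin, with Ltbp4 lower in both, at -0.42 (SE 0.06) and -0.45 (SE 0.06). Of 16 genes of TGF-beta signalling, 1 was higher in GC-fed and 1 lower in control-fed skin. In the diet comparisons 0 genes of these 6 lists passed.

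Marker counts stand against the same shares of all genes, 6.35% higher and 7.1% lower in GC-fed and 6.88% and 8.01% in control-fed skin. Of 9 hair follicle markers, 6 passed as higher after SDS in GC-fed skin and 4 in control-fed skin, with medians of 1.59 and 0.89. Their mean log2 intensity was 14.00 to 14.73 in GC-fed and 13.69 to 14.74 in control-fed skin after SDS, and 12.00 to 13.20 in GC-fed and 12.15 to 14.23 in control-fed skin before SDS. Fibroblast markers were at a median of -0.15 in GC-fed and 0.01 in control-fed skin, with 0 of 12 called in GC-fed skin and 1 (Crabp1, higher) in control-fed skin. Of 10 adipocyte markers, 1 was lower in GC-fed skin (median -0.01) and 3 were higher in control-fed skin (median 0.34). Of 9 keratinocyte markers, 0 passed in GC-fed skin (median -0.07) and 1 was lower in control-fed skin (median -0.26, with 9 of 9 below 0). Of 6 endothelial markers, 2 were lower in GC-fed skin (median -0.28) and 1 in control-fed skin (median -0.06). Before SDS the mean log2 intensity was 12.90 to 13.06 in GC-fed and 13.003 to 13.23 in control-fed skin for adipocyte markers, and 14.87 to 15.08 and 14.72 to 15.01 for keratinocyte markers. Endothelial markers had 9.58 to 9.98 in GC-fed and 9.92 to 10.03 in control-fed skin after SDS, and 10.01 to 10.11 in GC-fed and 10.02 to 10.13 in control-fed skin before SDS. The part of follicle stage and of cell composition in the matrix values was not tested.

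The authors' deposited table held 36 of the 38 members. In the authors' deposited table Serpinh1 had log2 ratios of -0.70, -0.47, -0.43 and -0.35 after SDS and 0.09, 0.25 and -0.12 before SDS. In the authors' deposited table Col1a2 had 0.26, 0.41, 1.61 and 0.54 after SDS and -0.09, 0.33 and 0.83 before SDS. Fbln1 there was above 0 on after-SDS array 2, at 0.14 in the authors' deposited table, so it was not lower on all 4 arrays.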

How the data were processed

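RNA of mouse dorsal skin was measured on 7 two-colour Agilent arrays. Per the file headers, the deposited scanner files hold spot intensity extracted with Agilent Feature Extraction 9.1.3.1. A second deposited file gives, per its header, gene values with a floor set by the authors and the log2 diet ratio; it served as an alternative. The members, roles and lists were chosen with earlier results of these data known.

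Mean signals were corrected with limma 3.58.1 (R 4.3.3; normexp, offset 50) and then loess-normalized, control spots carrying weight 0. Probes above background in at least 3 of 14 channels were kept; the brightest probe of a gene stood for it, and no spot was saturated. Between 48.5% and 62.8% of the spots were well above background; the number of arrays limits the precision. Diet effects came from lmFit and eBayes on the ratios with a dye term. SDS effects came from limma's separate-channel fit after Aquantile, at an estimated correlation within spots of -0.00155. Benjamini-Hochberg adjustment ran over 17101 genes, with 0.05 as the threshold; p-values measure the spread between these samples. Both fits were tested on simulated data. Named members were 20 fixed genes plus the 3 largest called values in each direction of a comparison, or the 2 smallest p where none was called. Alternatives covered background, normalization, filter, probe rule, dye term, replicate block and each array left out.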

Additional observations from a re-analysis of the deposited data

Results flagged for a closer look

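After SDS, 114 sets of 4 values (a ratio, a GC-fed level and a control-fed level for each of the 38 genes) were looked at for a sample far from the other 3 (Dixon's criterion), and 5 were found. Chance gives about 1 such set in 20. The diet ratio of Col6a3 (log2) was 0.47 on array 4, against -0.29 to -0.18 on the other 3. Its GC-fed level was 13.57 on array 4, against 12.995 to 13.09. Lum had a GC-fed log2 intensity of 15.59 on array 1, against 15.91 to 15.97, and Lox one of 10.32 on array 1, against 11.03 to 11.13. Tnxb had a GC-fed log2 intensity of 11.73 on array 3, against 12.52 to 12.57.

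On its brightest probe Fbln1 was lower in GC-fed skin on every array after SDS and higher on every array before SDS. Its other probe was above 0 on after-SDS array 2, at 0.33, and below 0 on before-SDS array 2, at -0.03. The difference between the ratios of the brightest probe was -0.56 (SE 0.20), with an unadjusted p = 0.028 and an adjusted p of 1 in limma's fit, so it did not pass. In the authors' deposited table the log2 ratio of Fbln1 on after-SDS array 2 was 0.14, above 0.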

How the results depend on the processing

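No member's value that passed changed its sign under any alternative run. In the diet comparisons 0 genes passed under every alternative that kept all arrays, the authors' deposited ratios included. Leaving out each array in turn, the diet effect after SDS called 0 to 927 genes and 0 to 8 members, and the difference after minus before SDS called 0 to 56 genes; only the fits without after-SDS array 4 gave calls. For SDS in GC-fed skin the same fits called 533 to 2720 genes and 3 to 19 members, and in control-fed skin 93 to 3663 genes and 0 to 10 members. The scanner's processed signals called 1329 genes and 6 members in GC-fed skin. Median centring called 1151 genes in GC-fed skin, and 1141 genes and 5 members in control-fed skin. The cause was not tested. Replicate numbers were not used to pair the samples in the main fits. Same-numbered samples before and after SDS deviated together at r = -0.196 to 0.292, which cannot settle whether they were paired. With the replicate block, at the correlation within spots of the fit without it, 1355 genes were called in GC-fed and 1533 in control-fed skin; no block was possible within the diet comparison of either time alone. The members' medians moved by less than their spread over arrays (1 SD) under all alternatives run. That spread includes the array left out, so this cannot show that the medians are stable. Without after-SDS array 4 the median of the diet effect after SDS went from -0.0024 to -0.18, against a spread of 0.31 that holds array 4. Of 160 repeats of the 10 calls in each diet, 42 in GC-fed and 34 in control-fed skin fell short of the threshold.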
